A study of Mus musculus with 26 samples.

Results

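The 39 protein-coding Hox genes of clusters a, b, c and d were followed in 26 colon biopsies from the AOM–DSS model of colon tumorigenesis. They were taken as every protein-coding gene of the GRCm38 annotation whose symbol is Hox, a cluster letter and a paralogue number, out of 35975 genes to which transcripts were summed. Of the 39, 28 passed the filter on low counts and were tested together with the other genes kept (17063 in all). The other 11, namely the 9 Hoxc genes, Hoxb1 and Hoxd1, were described by their counts.

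All mice were wild-type C57BL/6J males from Taconic with a starting age of about 10 weeks, fed either a standard diet or a diet with GW3965, an agonist of the nuclear receptor LXR. The groups of days 22, 43 and 70 had received AOM (azoxymethane, a carcinogen) at 10 mg per kg and up to 3 cycles of 7 days of DSS (dextran sodium sulfate, which injures the colonic epithelium), and held 3 samples per diet each. The day 0 groups had received neither agent, and held 4 samples per diet, 2 collected after 22 and 2 after 43 days of diet. No untreated sample was collected at day 70, so age and time on the diet cannot be told apart from AOM–DSS in the day 70 comparisons. Per the methods, the biopsies were cut from the distal colon at the place where tumours form, and no label gives a biopsy's exact position. Samples of days 22 and 43 on one diet came from 1 cage, day 0 samples of a diet shared 1 other cage, and every biopsy of day 70 had a cage of its own, so diet and cage cannot be told apart at days 0, 22 and 43. No cage held samples both with and without AOM–DSS, so each comparison of a later day with day 0 also crosses cages, and day and cage cannot be told apart in it. For the bulk RNA-seq, the study speaks of several mice per timepoint in one place and of biological replicates pooled into a sample in another. The labels do not settle it, so that p values measure the spread between these samples. For 1 GW3965 day 0 sample (replicate 4) the title and the diet label disagree, and it was placed by its title.

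Hox genes encode homeodomain transcription factors that are laid out along their chromosomes in the order in which they are used along the body axis. Genes with low paralogue numbers act towards the head end and genes with high numbers towards the tail end, and genes with the same number in different clusters, called paralogues, descend from one ancestor. The adult gut keeps part of this pattern in its epithelium and in its mesenchyme, and the last paralogue group, 13, marks the hindgut, from which the distal colon and rectum are made.

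The upstream sequences of 3 genes are shown because the genes behaved differently over the timecourse: Hoxa9 was higher at day 70, Hoxa13 was lower on day 43 of both diets, and Hoxd13 was not called in any comparison. No upstream sequence was available for Hoxb13. Each run is the 250 bases before the RefSeq start (GRCm38.p6), 5′ to 3′ on the strand of the gene. Capitals mark ATAAA or its complement TTTAT, letters found in the binding sites of Cdx factors and of Hox proteins of the posterior groups. The runs cover chr6:52227371-52227620 on the minus strand for Hoxa9, chr6:52260881-52261130 on the minus strand for Hoxa13 and chr2:74667975-74668224 on the plus strand for Hoxd13. That of Hoxa9 lies inside the annotated span of the gene, so it is not upstream of every transcript counted.
Hoxa9: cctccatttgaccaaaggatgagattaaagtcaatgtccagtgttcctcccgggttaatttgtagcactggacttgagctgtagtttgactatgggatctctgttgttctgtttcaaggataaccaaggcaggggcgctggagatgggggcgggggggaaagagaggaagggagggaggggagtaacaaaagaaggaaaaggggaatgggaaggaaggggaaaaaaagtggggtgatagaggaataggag
Hoxa13: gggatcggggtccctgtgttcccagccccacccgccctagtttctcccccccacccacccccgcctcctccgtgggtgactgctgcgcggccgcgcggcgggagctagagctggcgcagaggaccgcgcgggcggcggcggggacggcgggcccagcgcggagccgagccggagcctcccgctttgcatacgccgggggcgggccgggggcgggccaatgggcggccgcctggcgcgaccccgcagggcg
Hoxd13: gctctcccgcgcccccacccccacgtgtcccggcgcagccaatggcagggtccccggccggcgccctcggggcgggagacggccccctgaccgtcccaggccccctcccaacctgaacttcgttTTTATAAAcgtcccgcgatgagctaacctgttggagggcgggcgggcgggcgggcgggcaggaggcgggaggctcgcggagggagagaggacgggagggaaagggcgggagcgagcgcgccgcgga
The Hoxa13 and Hoxd13 runs were rich in G and C (80.0% and 74.4%, with 35 and 31 CpG dinucleotides), and that of Hoxa9 was not (49.6%, with 3), against a median of 52.4% and 6 over all 32851 promoters of the table. Searched on both strands, ATAAA occurred in 9 of the 24 upstream runs listed for 22 Hox genes and in 37.3% of all promoters, a match that also takes in every TATAAA box (4 of the 24 runs and 12.4% of all promoters). The Hoxd13 run held an overlapping match on each strand within a TATAAA, and the Hoxa9 and Hoxa13 runs held none.

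Total estimated counts per sample ranged from 18195345 to 41522204 (median 20424701). All 11 genes of a colon epithelium list (Epcam, Cdh1, Muc2 and others) stood at 1 TPM (a level per sample corrected for transcript length and scaled to a fixed total) or more in every sample. A pair of libraries stood apart in RNA integrity or in muscle genes. Replicate 1 of the standard diet on day 43 had an RNA integrity number of 2.6, against 6.8 to 10 in the other 25 samples. By day, this number was 10 in all samples of day 0, 9.1–10 on day 22, 2.6–9.3 on day 43 and 9.4–10 on day 70. The part of RNA integrity in the differences of day 43 from day 0 was not tested. Replicate 1 of the GW3965 diet on day 70 held 31438.6 TPM of skeletal muscle genes summed over 11, against at most 1385.8 in any other sample, and 80.0 TPM of hair follicle genes against at most 7.33. Summed stratified epithelium genes were at 11.4–17.2 TPM on day 0, 12.7–30.5 on day 22, 73.4–2302 on day 43 and 12.2–21840 on day 70. Summed smooth muscle genes were at 3896–16375 TPM on day 0 and 1354.5–5245 on day 70. Of 8 genes of the small intestine, a list that bears on position, the sum was 29.3–81.4 TPM on day 0, 53.1–104 on day 22, 63.6–5732 on day 43 and 195–5970 on day 70. It was highest in replicates 2 (5970) and 3 (4901) of the standard diet on day 70 and in the library of low RNA integrity (5732). The Paneth cell genes Lyz1 and Defa24 made up these 3 sums almost entirely, and the enterocyte enzyme Sis stayed at 0.511 TPM or less in every sample. The part of these genes in the day 70 results was not tested. Prostate genes, listed because Hoxb13 is also a prostate gene, summed to at most 1.99 TPM in any sample.

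Untreated distal colon carried a posterior code. At day 0, genes of paralogue group 13 held 67.6% ± 3.90 (SD, n = 8) of the summed Hox TPM, groups 10 to 12 held 16.8% ± 2.21, group 9 held 5.98% ± 0.61, groups 4 to 8 held 7.29% ± 1.06 and groups 1 to 3 held 2.30% ± 0.62. By cluster, b held 53.0% ± 4.44, a held 26.2% ± 2.84, d held 20.7% ± 2.33 and c held 0.0449% ± 0.0213. Hoxb13 alone made up 43.1–57.3% of the total at day 0, and it was the highest Hox gene in 25 of the 26 samples. The exception was the standard-diet day 43 library of low RNA integrity, in which Hoxa10 came first. Hoxd13 came second in 22 samples, Hoxa10 in 3 and Hoxa9 in 1.

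**Figure D1:**
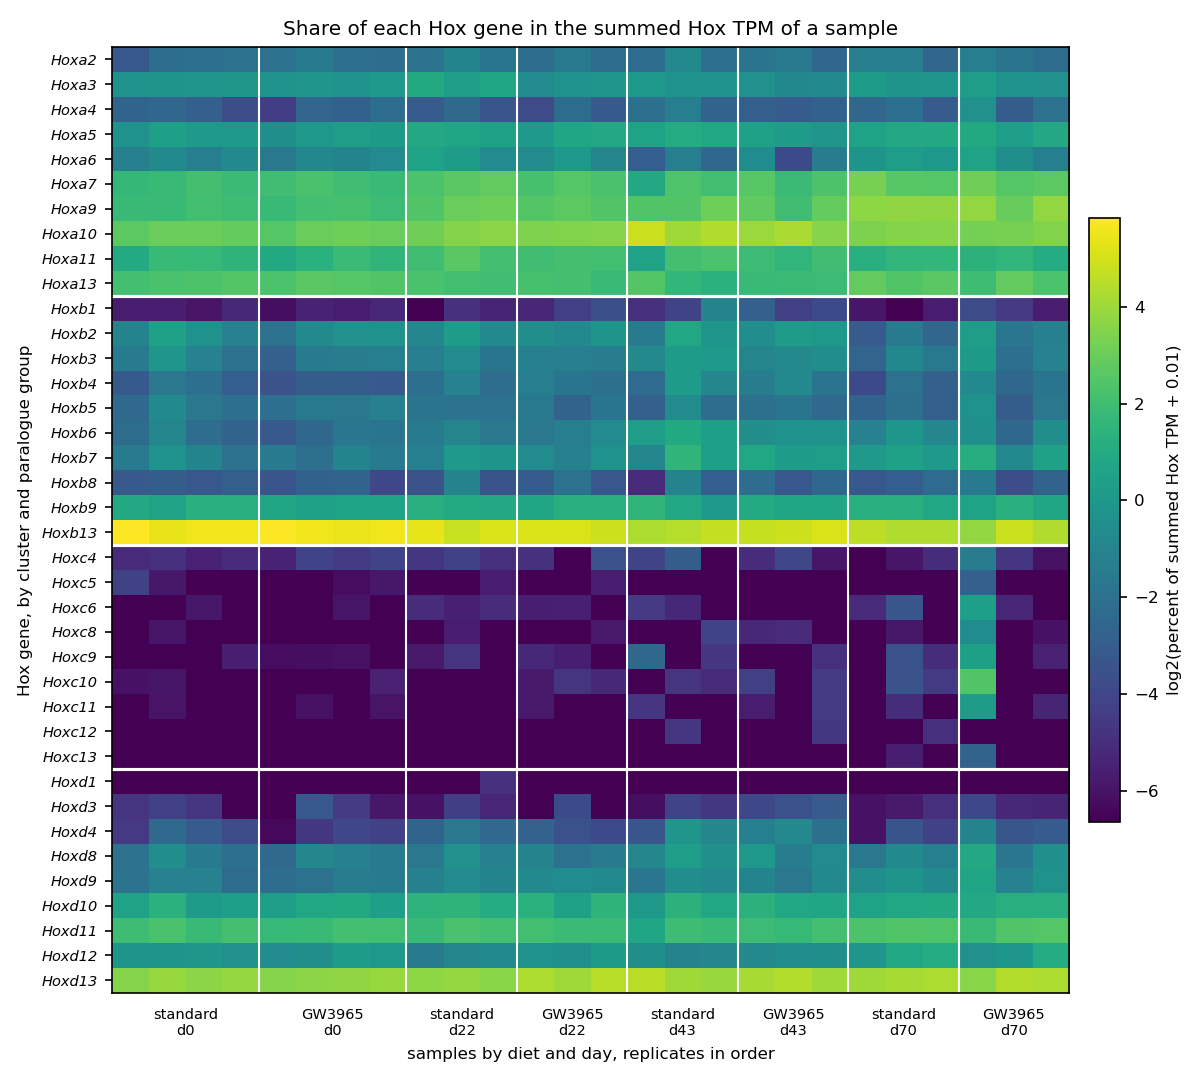
Share of the Hox genes reported here (rows, by cluster and paralogue number) in the summed Hox TPM of each of the 26 samples (columns, by diet and day, replicates in order), as log2(percent + 0.01). Hoxb13 and Hoxd13 form the brightest rows, the Hoxc rows are dark except in the first GW3965 sample of day 70, and white lines separate groups and clusters.

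Levels at day 0 ran from the 3 leading genes down to genes at the edge of detection. Over the 8 day 0 samples the mean level was 309.7 TPM ± 72.9 (SD) for Hoxb13, 83.9 ± 10.0 for Hoxd13 and 46.8 ± 6.21 for Hoxa10, and these ranges did not overlap. Below them, Hoxa13 stood at 33.2 TPM ± 6.37 and overlapped with Hoxa10 and with the next in order, Hoxd11 (24.8 ± 3.19), Hoxa7 (24.4 ± 5.10) and Hoxa9 (24.3 ± 4.14), which did not differ beyond their spread. Hoxa11 (17.2 ± 2.85), Hoxb9 (11 ± 2.06) and Hoxd10 (9.81 ± 2.44) followed. Within a cluster the level did not follow the paralogue number step by step. Hoxd12, the neighbour of Hoxd13, was at 5.40 TPM ± 1.01, below both Hoxd11 and Hoxd10, and Hoxd9 was at 1.93 ± 0.41. The anterior gene Hoxb1 (0.067 ± 0.030) was close to the floor.

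The code was summarised as the mean paralogue number of the Hox TPM of a sample, a number that rises as transcripts come from more posterior groups. On the standard diet it was 11.85, 11.33, 11.51 and 11.70 in the 4 samples of day 0. It was 11.17, 10.67 and 10.89 on day 22, 11.004, 10.24 and 10.62 on day 43 and 10.74, 10.64 and 10.85 on day 70. On the standard diet, every sample with AOM–DSS lay below all 4 of day 0. On the GW3965 diet the 4 samples of day 0 had 11.92, 11.57, 11.51 and 11.60. The values were 11.32, 11.15 and 11.14 on day 22, 10.81, 11.09 and 11.11 on day 43 and 9.70, 11.25 and 10.72 on day 70, again all below those of day 0. Over both diets the mean was 11.62 ± 0.19 (SD, n = 8) on day 0, 11.06 ± 0.23 on day 22, 10.81 ± 0.34 on day 43 and 10.65 ± 0.51 on day 70 (n = 6 each). The lowest sample, at 9.70, was the GW3965 day 70 library with skeletal muscle genes, and without this one and the library of low RNA integrity the day 70 mean was 10.84 ± 0.24 (n = 5). No test was made of this score over the members.

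The difference between days in the mean paralogue number shrank to within the SD once paralogue group 13 was left out. With the 3 expressed group 13 genes and Hoxc13 left out, the mean paralogue number was 8.75 ± 0.12 on day 0, 8.72 ± 0.14 on day 22, 8.74 ± 0.26 on day 43 and 8.74 ± 0.25 on day 70, differences from day 0 (-0.030, -0.0084 and -0.015) smaller than the SD of any day. With only Hoxb13 left out, the differences were -0.26, -0.28 and -0.28, smaller than the SD of those days (0.29, 0.37 and 0.47) and larger than that of day 0 (0.14). With log2(TPM + 1) as weights, which let the leading genes count for less, they were -0.0079, -0.013 and -0.071. This mean can hide shifts that cancel. Within groups 1 to 12 alone, group 9 held 18.7% ± 2.14 (14.5–20.9) of the TPM on day 0 and 28.7% ± 2.60 (24.6–30.9) on day 70, and groups 10 to 12 held 51.8% ± 1.60 (49.6–54.0) and 42.2% ± 5.0 (35.4–49.4), in both cases without overlap. On days 22 and 43 both shares overlapped with those of day 0. Of all Hox TPM, Hoxb13 made up 48.9% ± 5.11 before treatment and 33.9% ± 4.84, 26.4% ± 5.45 and 21.2% ± 4.73 at the 3 later days. Group 13 as a whole held 67.6% ± 3.90 on day 0 and 54.6% ± 4.96, 48.8% ± 5.48 and 45.2% ± 8.61 later. Its mean share fell less than that of Hoxb13 alone. The share of groups 10 to 12 was 16.8% on day 0 and 22.7% ± 2.22, 28.3% ± 3.71 and 22.8% ± 1.82 at the later days, and that of group 9 was 5.98% on day 0 and 15.7% ± 2.68 on day 70. Whether the biopsies of different days were cut at the same distance from the anus was not tested, since no measure of position other than gene expression was used here.

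**Figure D2:**
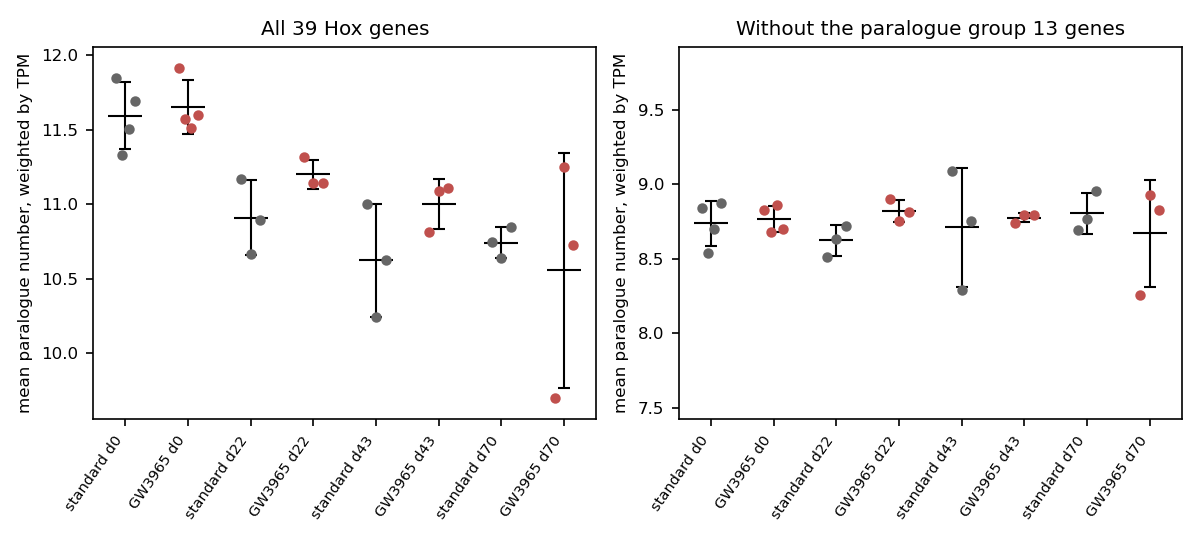
Mean paralogue number weighted by TPM in each sample (dots, grey for the standard diet and red for GW3965), with the mean and SD of each group (bars), for all 39 Hox genes on the left and without group 13 on the right, on axes of equal span that do not start at 0. On the left all samples of days 22, 43 and 70 lie below the lowest day 0 sample of the same diet, and on the right the 8 group means lie between 8.62 and 8.82.

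Changes of single genes between days were measured on CPM (counts scaled to a fixed library total), normalised by TMM (edgeR's scaling of library sizes), not on TPM. The TPM scale itself was shifted between days: over the 17063 genes tested, the median difference of log2(TPM + 1) from day 0 was -0.14, -0.58 and 0.07 at days 22, 43 and 70 of the standard diet and -0.28, -0.52 and 0.09 on GW3965. Over the 7458 genes with a mean count of at least 500, where the added 1 matters less, it was -0.27, -1.04 and 0.16 and -0.45, -0.91 and 0.06. Of 33 calls of Hox genes below, 3 went the other way in mean TPM, and they are named where they occur. Fold changes are log2 values with their standard errors, against the day 0 samples of the same diet, and "called" means an adjusted p (FDR) under 0.05 in edgeR's quasi-likelihood test. The comparisons of 3 days on one diet share the same day 0 samples.

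Calls of Hox genes in both directions together were no more frequent than those of all genes in any of the 6 comparisons of a day with day 0, although the share called lower was above that of all genes on days 22 and 70 of GW3965. For the standard diet, 0 of the 28 Hox genes tested were called on day 22 by edgeR's quasi-likelihood test (3 had an unadjusted p under 0.05, and DESeq2 called 1), against 7.56% of all genes called higher and 1.99% called lower. At day 43, 4 were called higher and 6 lower, with 30.8% and 24.2% of all genes. At day 70, 4 were higher and 2 lower, with 16.7% and 13.7%. On the GW3965 diet, 0 were higher and 3 lower on day 22 (13.7% and 7.05% of all genes), 5 higher and 3 lower on day 43 (26% and 19.3%), and 3 higher and 3 lower on day 70 (14.7% and 6.82%). The test of any difference among the 8 groups called 15 of the 28, with 73.9% of all genes. The median log2 fold change of the 28 lay between -0.19 and 0.21 in the 6 comparisons, and that of all genes between 0.0056 and 0.14. At day 43 ribosomal protein genes took 10.0–18.6% of counts, against 5.33–6.51% on day 0, and with this percentage as a term in the fit 0 Hox genes were called on day 43 on either diet. The share of all genes called in that fit is not given here, so this count has no background beside it. The number of calls on day 70 of GW3965 changed with single libraries, between 2 and 9: 2 were left without either replicate 1 of that group or replicate 2 of its day 0, and 3 without replicate 1 or replicate 4 of day 0.

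**Figure D3:**
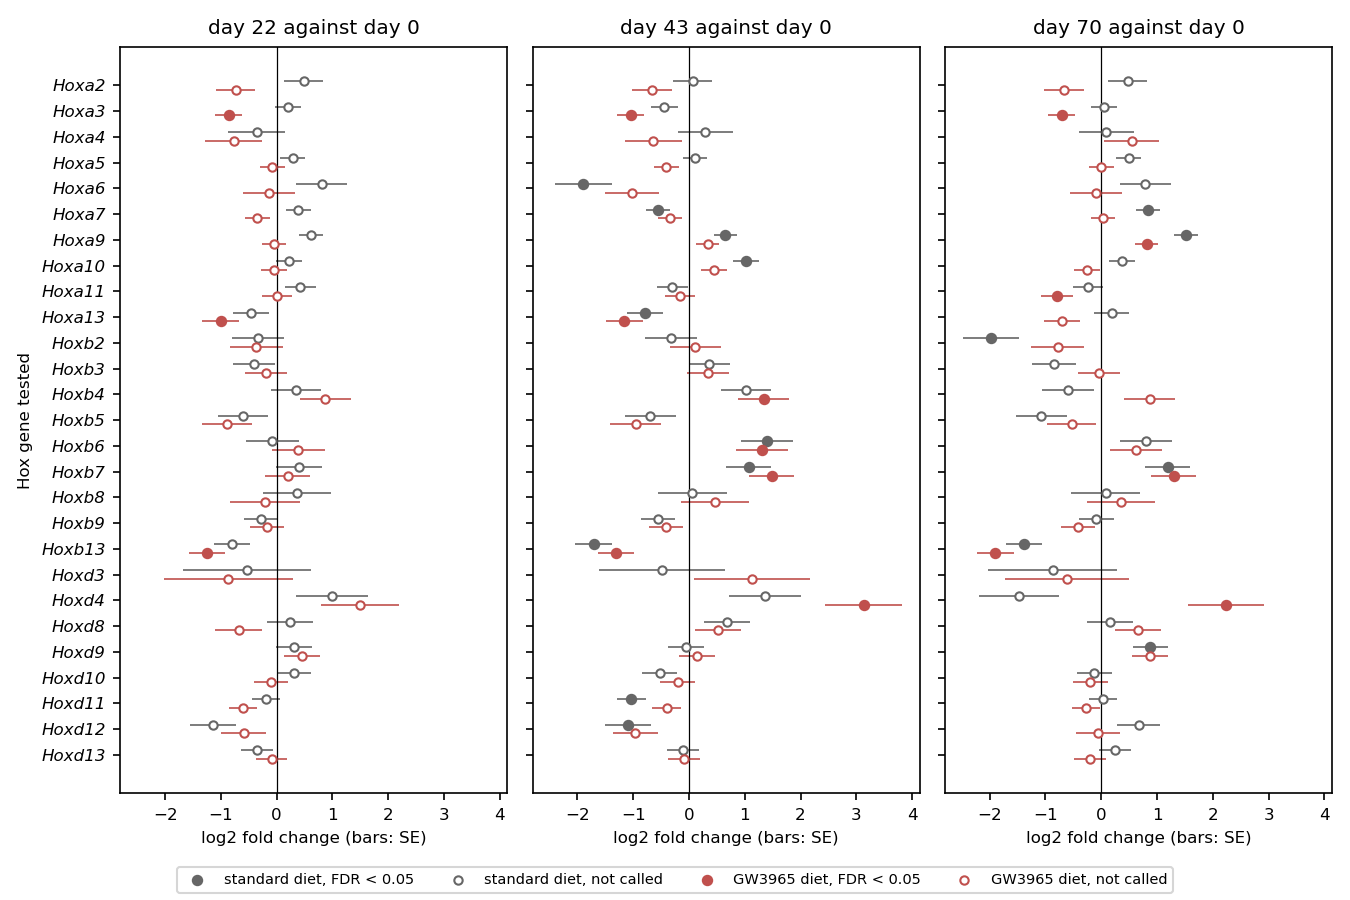
Log2 fold change (x axis, bars SE) of the tested Hox genes reported here (y axis, in cluster order) at days 22, 43 and 70 against day 0, in grey for the standard diet and red for GW3965, filled where the FDR was under 0.05. Hoxb13 is filled on the left of 0 in 5 of its 6 values, Hoxd13 is never filled, and Hoxb7 is filled on the right of 0 at days 43 and 70 on both diets.

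Hoxb13, the most posterior gene of cluster b and the main Hox transcript of the rectum and distal colon, was called lower in 5 of the 6 comparisons. With the standard diet, its CPM were 617.4, 394.5, 381.4 and 435.4 on day 0, 338.4, 185.7 and 263.7 on day 22, 141.9, 100.7 and 178.2 on day 43 and 199.3, 141.6 and 183.9 on day 70. All 9 samples with AOM–DSS lay below the 4 without. The log2 fold changes were -0.80 (SE 0.32, adjusted p = 0.125) on day 22, -1.70 (SE 0.33, adjusted p = 2.18e-04) on day 43 and -1.39 (SE 0.33, adjusted p = 0.00326) on day 70 in edgeR's quasi-likelihood test.

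On GW3965, Hoxb13 stood at 748.1, 492.9, 442.7 and 466.0 CPM on day 0, 253.0, 226.8 and 198.6 on day 22, 177.4, 205.7 and 270.4 on day 43 and 60.9, 205.2 and 164.9 on day 70. These groups did not overlap with day 0 either, and the lowest value was that of the library with skeletal muscle genes. The changes were -1.25 (SE 0.32, adjusted p = 0.0099), -1.30 (SE 0.33, adjusted p = 0.00286) and -1.90 (SE 0.33, adjusted p = 4.70e-04) at days 22, 43 and 70 in edgeR's quasi-likelihood test. Hoxb13 was still called on day 70 on both diets without the 2 libraries that stood apart (-1.38 and -1.54). With the ribosomal percentage as a further term, which itself moved with the day, its changes on day 43 were -1.25 on the standard diet and -1.0 on GW3965 and were no longer called, and without replicate 3 of GW3965 day 22 the call of that day was lost (-1.16).

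In these bulk samples a loss of cells that express a gene and less of its RNA per cell cannot be told apart. The 11 colon epithelium genes summed to 7946–15329 TPM on day 0, 5332–8980 on day 22, 2720–5904 on day 43 and 2770–18426 on day 70. The TPM scale was itself shifted downward on days 22 and 43, as given above, and these sums were not corrected for it. They are thus no measure of epithelial loss on those days. Within the epithelium list, Slc26a3 went from 165–441 TPM on day 0 to 3.08–58.7 on day 70. Aqp8 went from 171–391 to 3.43–111 and Car1 from 556–1959 to 36.0–163. The other genes of the list overlapped between day 0 and day 70. Set against Epcam, an adhesion molecule of all intestinal epithelial cells, Hoxb13 was at 20.0–29.7% of the Epcam TPM in the 8 samples of day 0, 10.6–17.1% on day 22, 6.13–17.97% on day 43 and 6.70–10.6% on day 70. The day 0 samples were above all later ones on this measure. Set against Cdx1, an intestinal transcription factor that was itself lower on some days, Hoxb13 was at 84.5–121% on day 0, 65.3–86.8% on day 22, 71.8–222% on day 43 and 45.3–86.1% on day 70, and each day overlapped with day 0. The value of 222% was that of the library of low RNA integrity, and the next highest of day 43 was 97.5%. As a percentage of the Epcam TPM, Hoxd13 overlapped between all days, with 5.76–9.62% on day 0, 4.73–8.28% on day 22, 5.97–9.47% on day 43 and 4.65–9.27% on day 70. The ratio of Hoxb13 to Hoxd13 within a sample, which no library scaling touches, went from 2.89–4.85 on day 0 to 1.30–3.19 on day 22, 0.823–2.13 on day 43 and 1.01–1.46 on day 70.

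Hoxd13, the last gene of cluster d, which patterns the cloaca and the smooth muscle of the anal canal as well as the limbs, was not called in any comparison. Under the standard diet it was at 150.5, 155.8, 118.2 and 152.5 CPM on day 0 and at 156.1, 149.0 and 207.3 on day 70. On GW3965 it was at 176.1, 146.0, 157.1 and 170.9 on day 0 and at 60.6, 177.5 and 183.9 on day 70. The groups overlapped on both diets. Its log2 fold changes ran from -0.36 (SE 0.29) on day 22 to 0.24 (SE 0.28) on day 70 of the standard diet, and the test of any difference among the 8 groups gave an adjusted p of 0.638 in edgeR's quasi-likelihood test. On the shifted TPM scale its mean was 83.9 ± 10.0 on day 0, 39.5 ± 12.9 on day 43 and 88.2 ± 29.0 on day 70.

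Hoxa13, the group 13 gene of cluster a, which acts with Hoxd13 in the hindgut and the urogenital tract, was called lower in 3 comparisons. On GW3965 it went from 64.9, 63.1, 57.5 and 53.9 CPM on day 0 to 34.5, 29.6 and 25.3 on day 22, 23.6, 27.3 and 29.4 on day 43 and 16.4, 53.2 and 40.7 on day 70. Every later sample was below those of day 0. It was called on day 22 (-1.01, SE 0.33, adjusted p = 0.0334) and day 43 (-1.16, SE 0.33, adjusted p = 0.00707) in edgeR's quasi-likelihood test, and its change on day 70 was -0.70 (SE 0.32). On the standard diet it was at 48.1, 41.9, 41.2 and 52.0 on day 0, 40.4, 28.7 and 31.3 on day 22 (not called, -0.45, SE 0.32), 45.6, 15.3 and 18.8 on day 43 and 60.2, 38.4 and 57.6 on day 70. There the day 43 call (-0.78, SE 0.33, adjusted p = 0.0465) included 1 library, that of low RNA integrity, at the level of day 0, and the change on day 70 was 0.19 (SE 0.32). The call of day 43 on the standard diet was lost in 9 of 16 alternatives, and that of day 22 on GW3965 in 7. Hoxc13 had 14 counts in the library with skeletal muscle genes, 2 in 1 other and 0 in the other 24.

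Hoxa9, which marks the segment just anterior to groups 10 to 13 and is widely used in blood stem cells, rose on day 70 on both diets. In the standard-diet groups it was at 29.1, 23.7, 26.6 and 27.1 CPM on day 0 and at 75.9, 66.9 and 87.0 on day 70, with no overlap. Its change was 1.52 (SE 0.21, adjusted p = 6.22e-05), the smallest p of any Hox gene in a day comparison in edgeR's quasi-likelihood test. On GW3965 it was at 33.3, 30.3, 33.5 and 26.7 on day 0 and at 42.3, 40.1 and 80.8 on day 70. Those groups did not overlap either (0.81, SE 0.21, adjusted p = 0.00849), although 1 sample of day 70 stood well above the other two, and without it (replicate 3) the change was 0.41 and not called. Summed stratified epithelium genes were at 2581–3983 TPM in the standard-diet samples of day 70. In the GW3965 samples of day 70 they were at 21840, 12.2 and 10346.5 TPM, where Hoxa9 was at 42.3, 40.1 and 80.8 CPM. The part of the stratified epithelium genes in the rise was not tested. The rise was on protein-coding transcripts of the gene, at 17.1–23.6 CPM on day 0 and 58.0–77.0 on day 70 of the standard diet. At day 43 of the standard diet Hoxa9 was also called higher (0.65, SE 0.21, adjusted p = 0.0126), but its mean TPM went from 21.1 to 11.6 and the change was 0.15 and not called when the counts were corrected for transcript length.

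**Figure D4:**
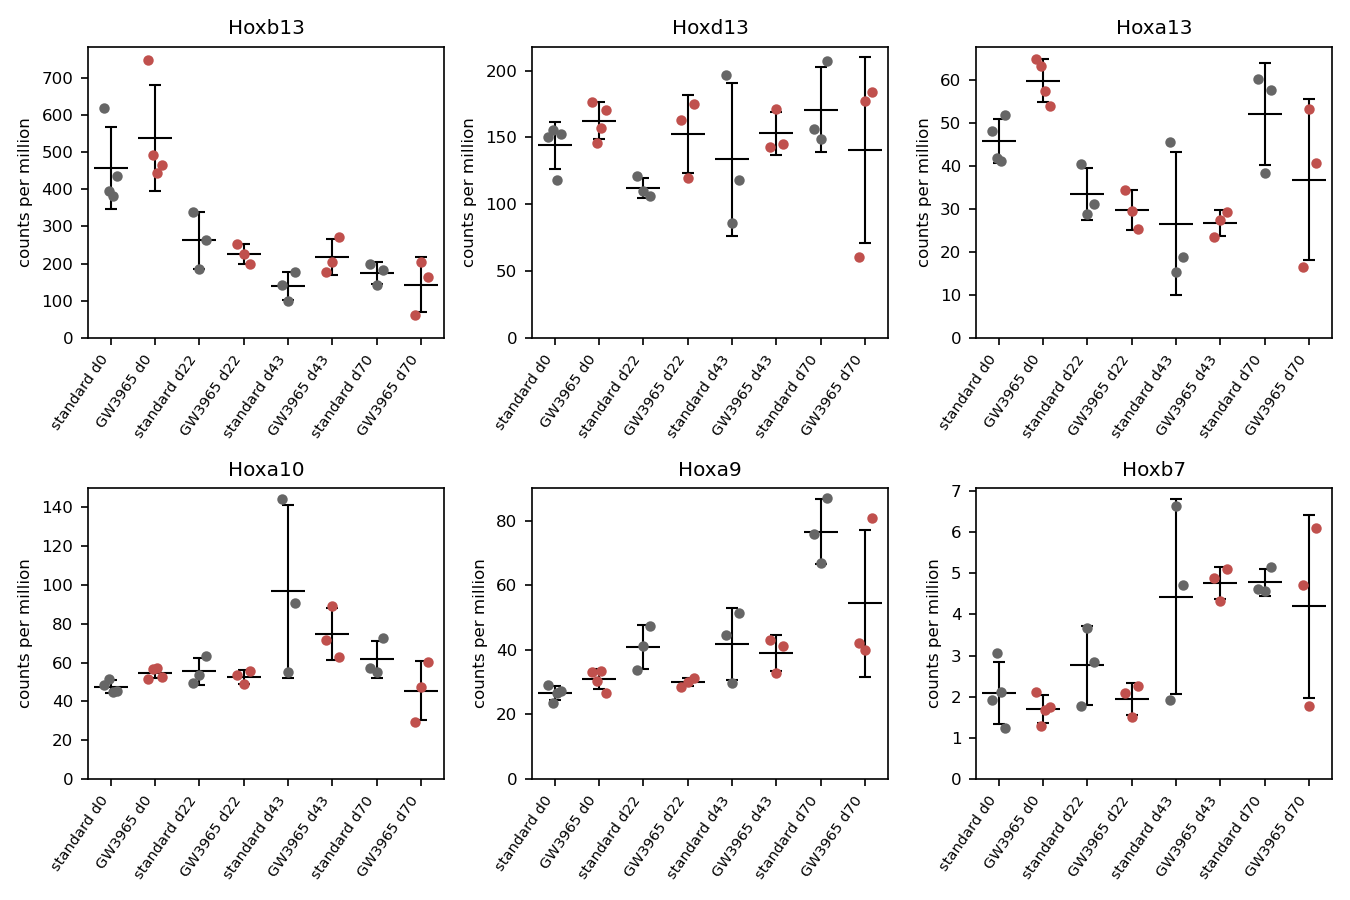
TMM-normalised CPM of 6 Hox genes in each sample (dots, grey for the standard diet and red for GW3965), with the mean and SD of each group (bars), on axes that start at 0. Hoxb13 is highest in both day 0 groups, Hoxd13 on each later day overlaps with day 0 of the same diet, and Hoxa9 is highest on day 70 of the standard diet.

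Hoxa10, the neighbour of Hoxa9 and a regulator of the reproductive tract and of muscle patterning, differed on day 43 on its transcripts without a coding annotation. In standard-diet samples it was at 48.5, 51.8, 44.7 and 45.5 CPM on day 0 and at 144.3, 55.4 and 90.6 on day 43, and it was called higher (1.02, SE 0.23, adjusted p = 0.0010 in edgeR's quasi-likelihood test). Its mean TPM did not follow (42.016 on day 0 and 40.2 on day 43). Of its 4 annotated transcripts, the protein-coding ones were at 16.4–25.4 CPM on day 0 and at 9.80–25.2 on day 43, while the others were at 26.4–29.1 and 45.6–129.3. Counted on protein-coding transcripts alone, the change was -0.24. The sample at 129.3 was the one with an RNA integrity number of 2.6. On GW3965 on day 43, with RNA integrity numbers of 6.8–9.3, the other transcripts were at 41.8–71.1 against 29.2–33.6 on day 0, and the whole gene was not called (0.45, SE 0.24). The part of RNA integrity in this difference was not tested.

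**Figure D5:**
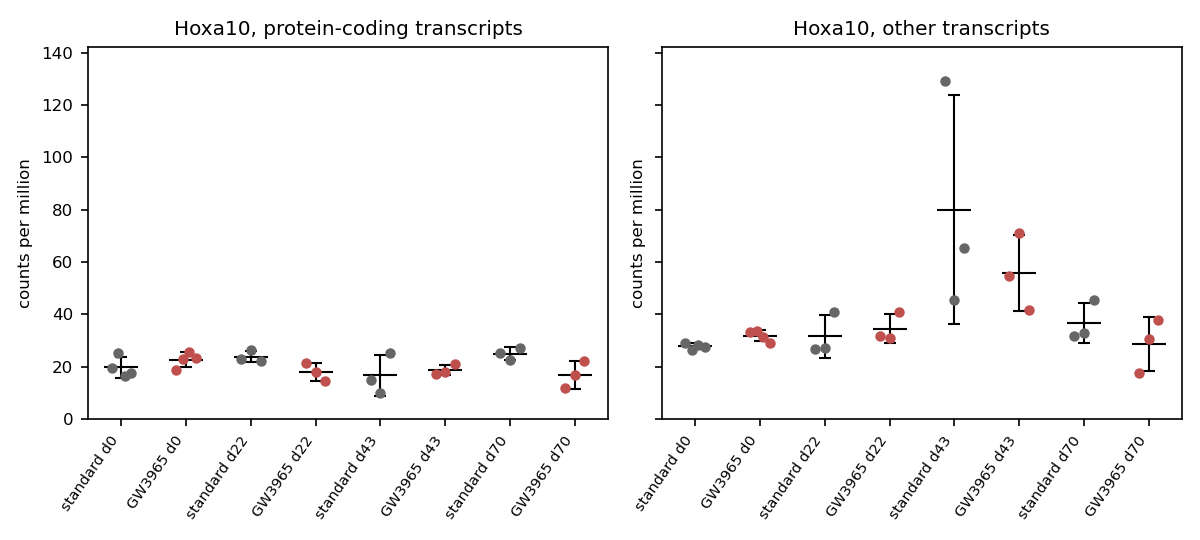
CPM of Hoxa10 on its protein-coding transcripts (left) and on its other annotated transcripts (right) in each sample, grey for the standard diet and red for GW3965, with the mean and SD of each group. The protein-coding transcripts stay between 9.80 and 27.2, and the other transcripts reach 129.3 on day 43 of the standard diet.

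The middle of the clusters, groups 4 to 8, which pattern the trunk and the more anterior gut, changed gene by gene. Hoxb7 was called higher in 4 comparisons. It was at 1.24–3.07 CPM on day 0 of the standard diet, 1.93–6.64 on day 43 (1.07, SE 0.40, with mean TPM slightly lower, 2.61 to 2.48) and 4.57–5.16 on day 70 (1.19, SE 0.40). On GW3965 it was at 1.30–2.11 on day 0, 4.33–5.09 on day 43 (1.48, SE 0.40) and 1.77–6.11 on day 70 (1.30, SE 0.40). Of 16 alternatives, these calls were lost in 9 and 9 on the standard diet and in 1 and 8 on GW3965, and without replicate 2 of standard day 43 the change of that day was 0.65. Its neighbour Hoxb6 was called on day 43 on both diets, with 1.19–4.25 and 5.50–6.16 CPM at days 0 and 43 of the standard diet (1.40, SE 0.47) and 0.983–2.56 and 3.47–5.44 on GW3965 (1.31, SE 0.47). The Hoxb6 call was lost in 1 of 16 alternatives on the standard diet and in 6 on GW3965. The diets shared Hoxb6, Hoxb7, Hoxa13 and Hoxb13 on day 43, which is 4 of the 10 calls on the standard diet and 4 of the 8 on GW3965, and Hoxa9, Hoxb7 and Hoxb13 on day 70, which is 3 of 6 on each. Over all genes, the calls made on both diets were 69.5% of those on the standard diet and 84.4% of those on GW3965 on day 43, and 42.6% and 60% on day 70.

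The remaining calls in these groups were made on 1 diet. Hoxa6 was lower on day 43 of the standard diet, at 0.280–0.589 CPM against 1.02–1.84 (-1.90, SE 0.51), a change that was 0.55 and not called with the ribosomal percentage as a term. Hoxa7 was higher on day 70 of the standard diet, at 32.0–54.1 against 20.2–25.1 (0.84, SE 0.22). At day 43 of the same diet it was called lower (-0.55, SE 0.22, named after its values were seen), and with the ribosomal percentage as a term this change was 0.06. Hoxb4 rose on day 43 of GW3965, from 1.19–1.43 to 2.45–4.73 (1.34, SE 0.46). Hoxd4 was called there (3.13, SE 0.69) and on day 70 of GW3965 (2.23, SE 0.69), on few reads: it had 1, 5, 8 and 5 counts in the GW3965 samples of day 0, 36, 39 and 23 on day 43 and 39, 11 and 22 on day 70. Without the library with skeletal muscle genes, the highest of these, and the library of low RNA integrity, the day 70 change was 1.42 and not called. Hoxd4 shares its annotated start with Hoxd3, and Hoxa3 spans Hoxa4, Hoxa5 and Hoxa6, so the division of reads between these genes is uncertain.

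Among groups 1 to 3, which pattern the hindbrain and the pharyngeal region, Hoxa3 was called lower on GW3965 on all 3 days. It was at 9.53–12.5 CPM on day 0, 5.45–7.48 on day 22 (-0.86, SE 0.24), 4.67–6.29 on day 43 (-1.05, SE 0.24) and 6.09–7.42 on day 70 (-0.71, SE 0.24), with no overlap with day 0. The day 70 call was lost in 8 of 16 alternatives. Its changes on the standard diet were 0.20, -0.44 and 0.05 (not called), and the difference between the diets in the change on day 22 was -1.05 (SE 0.34, adjusted p = 0.492 in edgeR's quasi-likelihood test). Hoxb2 was lower on day 70 of the standard diet, at 0.894–1.92 against 3.02–9.44 (-1.98, SE 0.50).

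In groups 9 to 12, Hoxd11, a patterning gene of the limb, kidney and hindgut, was lower on day 43 of the standard diet, at 12.8–19.9 CPM against 24.6–44.6 (-1.04, SE 0.26). Hoxd12 was lower there too, at 2.52–6.34 against 8.22–11.1 (-1.09, SE 0.41), a call lost in 4 of 16 alternatives. Hoxd9 was higher on day 70 of the standard diet, at 5.28–5.88 against 1.78–3.97 (0.88, SE 0.32), a call lost in 9 of 16 alternatives. Hoxa11 was lower on day 70 of GW3965, at 11.6–22.4 against 26.1–37.6 (-0.79, SE 0.28). Its call was lost in 10 of 16 alternatives, among them that without the 2 libraries that stood apart (-0.58). The other 11 of the 28 genes tested were not called in any of the 6 day comparisons.

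The Hoxc cluster was close to the floor of detection in all but 1 biopsy. Its 9 genes together had 2 to 35 counts in 25 samples, 0.0162–0.299% of the summed Hox TPM, where a count of 0 allows up to 3 counts, or 0.0723–0.165 CPM. In replicate 1 of GW3965 on day 70 they had 774 counts and 10.7% of the Hox TPM. Hoxc10 led with 396 counts, followed by Hoxc9 with 109, Hoxc11 with 91, Hoxc6 with 73, Hoxc8 with 50, Hoxc4 with 29, Hoxc13 with 14 and Hoxc5 with 12, and Hoxc12 had 0. This is the library in which skeletal muscle and hair follicle genes were high, all 11 and all 5 of their lists being at 1 TPM or more, and in which the 11 colon epithelium genes summed to 2770 TPM against 7767–18426 TPM in the other 5 samples of day 70. Their part in the Hoxc counts was not tested. Hoxd1 had 3 counts in 1 sample and 0 in the other 25, and Hoxb1 had at most 56.

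No Hox gene was called between the diets at a matched day by edgeR. In the comparison of the diets, edgeR's quasi-likelihood test called 0 of the 28 on day 0 (0.0293% of all genes called), 0 on day 22 (0.135%), 0 on day 43 (0.0293%) and 0 on day 70 (1.83%), with 2, 1, 0 and 4 at an unadjusted p under 0.05. DESeq2 called 0 on the first 3 days and 1, Hoxd4, on day 70. The difference of GW3965 from the standard diet in Hoxb13 was 0.25 (SE 0.29) on day 0, -0.17 (SE 0.34) on day 22, 0.49 (SE 0.38) on day 43 and -0.34 (SE 0.34) on day 70. For the change of the diet effect between day 0 and days 22, 43 and 70, 0 of the 28 were called by edgeR's quasi-likelihood test (0.0234%, 0% and 0% of all genes), with 4, 0 and 7 at an unadjusted p under 0.05. DESeq2 called 1, Hoxd4 on day 70.

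Factors that work with or upstream of Hox genes were tested in the same fits. Beside the counts below, 9.55%, 55.1% and 30.3% of all genes were called in either direction at days 22, 43 and 70 of the standard diet, and 20.7%, 45.3% and 21.5% on GW3965. Cdx1 and Cdx2 are the intestinal homeodomain factors that switch on posterior Hox genes in the embryo. Cdx1 was at 251–425 CPM on day 0 and 49.0–140 on day 43 of the standard diet (-1.84, SE 0.41, adjusted p = 7.88e-04 in edgeR's quasi-likelihood test). On GW3965 it was at 326–484 on day 0 and 54.3–242 on day 70 (-1.36, SE 0.40, adjusted p = 0.0192), the lowest value being that of the library with skeletal muscle genes. Cdx2 was not called in any comparison, with changes of 0.87 to 1.52 (SE 0.66 to 0.67) in the 6 day comparisons. Of the upstream regulators (Cdx, retinoic acid, trithorax and Polycomb genes), 19 of 21 were tested, and 0, 4 and 5 were called higher and 0, 6 and 1 lower at days 22, 43 and 70 of the standard diet, and 0, 2 and 2 higher and 0, 4 and 1 lower on GW3965. Aldh1a3, which makes retinoic acid, was higher at days 43 and 70 on both diets, with 15.1–26.9 CPM over day 0 and 83.4–932 on day 70. Ezh2, the Polycomb methyltransferase that silences Hox genes, was higher at days 43 (2.01, SE 0.38) and 70 (1.42, SE 0.38) of the standard diet.

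The TALE homeodomain proteins bind DNA together with Hox proteins. All 9 were tested, of which 5 were called on day 43 of the standard diet, where 55.1% of all genes were, with 0, 1 and 0 called higher and 0, 4 and 2 lower at days 22, 43 and 70 of the standard diet, and 0, 1 and 0 higher and 1, 2 and 1 lower on GW3965. Pknox1 was lower on day 43 on both diets (-1.65, SE 0.27, and -1.24, SE 0.27). Meis3 was lower on day 70 on both diets, at 1.58–3.58 CPM against 5.06–9.92 on day 0 (-1.89, SE 0.30, and -1.17, SE 0.29).

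Of 13 genes that mark regions of the gut outside the Hox clusters, 9 were tested, of which 5 were called on day 43 of the standard diet (55.1% of all genes), and 1, 4 and 4 were called higher and 0, 1 and 1 lower at days 22, 43 and 70 of the standard diet, and 1, 2 and 4 higher and 1, 2 and 1 lower on GW3965. Isx, a homeobox gene particular to the intestine, was called higher in all 6 day comparisons, with 0–0.346 CPM on day 0 and 1.33–15.8 at days 22, 43 and 70. Nkx2-3, a homeobox gene of the gut mesenchyme, was lower on day 70 on both diets (-1.56, SE 0.27, and -0.95, SE 0.27). In no comparison of the diets at a day was a gene of these 3 lists called.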

How the data were processed

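RNA from 26 colon biopsies was sequenced as paired-end reads of 150 bases, per the labels. Kallisto (version not given in the sources used here) was run by the authors against GRCm38 cDNA, and they deposited, for each transcript, estimated counts without normalization and TPM, which the authors' tool scales by transcript length. Of 119414 transcripts, 116728 (97.8%) were matched to GENCODE genes by identifier, and 0.615–0.999% of counts per sample were not. Counts were summed by gene and rounded. Whether counting used strand is not stated, so reads of antisense genes such as Haglr cannot be told apart from those of Hox genes.

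edgeR 4.0.16 in R 4.3.3 fitted all 26 samples as 8 groups, after filterByExpr and TMM, with the quasi-likelihood F-test and Benjamini-Hochberg adjustment over 17063 genes. The comparisons of diets and of diet effects had the ribosomal percentage (counts falling on 88 ribosomal protein genes, 3.96–18.6%) as a term, those of days had none. Alternatives used DESeq2 1.42.0, another scaling, no filter, fewer samples or other counts. The members and lists were chosen with earlier results of these data known. Genes named singly were those called (at most 8 per comparison), the group 13 genes and the 5 of highest mean TPM, and from the lists up to 4 called genes per comparison. The fits were tested on simulated data. Prac1 was not analysed here. Some genes that entered the counts are not reported here by name or drawn. Figures were drawn with matplotlib 3.10.9. RefSeq upstream sequences were matched by symbol.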

Additional observations from a re-analysis of the deposited data

How the results depend on the processing

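The counts of called Hox genes kept within 1.5 times under DESeq2, RLE size factors, no filter, length-scaled counts and protein-coding transcripts only (the last 2 chosen after seeing the data), except that DESeq2 called 1 instead of 0 for the diets at day 70, for day 22 of the standard diet and for the change of the diet effect at day 70. With the ribosomal percentage as a term, 0 were called at day 43 on either diet, and Hoxa7 (0.057) and Hoxa6 (0.55) at day 43 of the standard diet turned upward. With only the groups compared in the fit, 2 and 6 were called at days 22 and 43 of the standard diet and 7 and 2 at days 22 and 70 of GW3965. Without the 2 libraries that stood apart, also chosen after seeing the data, 3 were called at day 22 of the standard diet and 3 at day 70 of GW3965. Hoxa10 at day 43 of the standard diet turned to -0.24 on protein-coding transcripts. Fewer samples in a fit leave fewer degrees of freedom, and otherwise the cause was not tested. The shares of all genes called under these alternatives are not given here, so their counts of Hox genes have no background beside them.

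Replicate numbers did not pair the samples: 2 of 13 same-numbered pairs had correlated deviations above 0.1 (mean -0.066). A replicate block gave 1 call at day 22 of the standard diet and kept the other counts within 1.5 times.

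Leaving out 1 sample in turn gave 0–1 calls at day 22, 6–14 at day 43 and 3–7 at day 70 of the standard diet, 1–3, 5–8 and 2–9 on GW3965, 0–1 for the diets at day 70, 0–2 for the change of the diet effect at day 70 and 0 otherwise. The lowest counts came without replicate 1 of standard day 0 (6), replicate 1 of standard day 70 (3), replicate 2 or 3 of GW3965 day 22 (1) and replicate 2 of GW3965 day 43 (5). The diet call at day 70 appeared without replicate 3 of GW3965 day 70, and the call at day 22 without replicate 1 of standard day 22. Of 33 called values of single genes, 33 kept their call under DESeq2, 33 under RLE, 27 without the filter, 26 with the block or length-scaled counts, 31 on protein-coding transcripts and 13 with the ribosomal term.

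The difference of the mean paralogue number from day 0 at days 22, 43 and 70 (-0.57, -0.81 and -0.97) was -0.49, -0.77 and -0.86 with count weights, -0.26, -0.28 and -0.28 without Hoxb13, -0.030, -0.0084 and -0.015 without group 13 and -0.0079, -0.013 and -0.071 with log2(TPM + 1) weights. Leaving out 1 sample gave -0.62 to -0.49, -0.87 to -0.70 and -1.09 to -0.78. Genes under about 1 CPM rest on few reads, where only large changes could be detected.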
